A study of Mus musculus with 36 samples.

Results

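The comparison described here is the change between 10 and 30 weeks of age in the WT mouse prostate, read as miRNA levels. Its members are the 6 WT libraries without the TRAMP transgene, 3 from 10-week-old and 3 from 30-week-old mice, of 36 libraries in the series. The libraries were taken by genotype and age, with no measured value. The comparison and the miRNA lists were chosen with earlier results of these data known. The study sequenced miRNAs from the ventral and lateral lobes of male mice to ask how Elac2, the RNase Z enzyme that trims the 3′ ends of precursor tRNAs, acts in the prostate. It set WT mice against a prostate-specific knockout (KO), in which Cre under the probasin promoter (Pb-Cre), active in prostate epithelium, removes Elac2, and against mice with the Ala537Thr substitution in every tissue (A537T), each with and without TRAMP, a transgene that drives prostate tumours. All 6 WT libraries were ELAC2+/+ mice on the background that the labels spell C56NL/6N, untreated and on normal chow, and age was the only labelled difference between them. Whether the WT mice carried loxP sites or Pb-Cre was not given in the sources used here, and the labels call the samples triplicates without tying a library to one animal.

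miRNAs are short RNAs that guide Argonaute proteins to mRNAs, mainly by pairing of the seed, bases 2 to 8 of the miRNA. Many are made almost only in one cell type, so a tissue's miRNA profile also records which cells were in the sample: miR-1, miR-133 and miR-206 are made by striated muscle, miR-143 and miR-145 by smooth muscle, miR-126 by endothelium, and the miR-200 family and miR-205 by epithelium. Others are made from one long transcript and tend to move together, such as the imprinted miRNAs between Dlk1 and Dio3, and miR-322, miR-503 and their neighbours on the X chromosome, which are known for slowing the cell cycle and for their high levels in young, growing tissue.

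The mature sequences of the miRNAs that the comparison turned on are given first, 5′ to 3′, with the seed in capitals. They are RefSeq sequences on GRCm38.p6, where 58 of 69 names looked up had an entry. The first set, shown because its members carry the calls, holds 3 muscle miRNAs, 1 member of the miR-378 family and the 7 other miRNAs that passed the test.
miR-206-3p: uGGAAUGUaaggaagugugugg
miR-208b-3p: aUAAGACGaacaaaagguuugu
miR-499-5p: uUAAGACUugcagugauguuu
miR-378c: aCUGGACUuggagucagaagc
miR-340-5p: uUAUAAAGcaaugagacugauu
miR-30a-5p: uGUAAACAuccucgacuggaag
miR-149-5p: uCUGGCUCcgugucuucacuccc
miR-653-5p: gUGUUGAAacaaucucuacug
miR-299a-3p: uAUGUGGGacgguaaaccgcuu
miR-7689-3p: uUAGAGCCagacugccuggguuu
miR-1941-3p: cAUCUUAGcaguaucucccau
The second set is shown because its members fall into groups that share a seed and are set side by side in the results. miR-322-5p has the seed of miR-16-5p and miR-195a-5p, miR-20b-5p and miR-106a-5p have the seed of miR-20a-5p, and miR-363-3p has that of miR-92a-3p.
miR-322-5p: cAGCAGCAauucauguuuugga
miR-16-5p: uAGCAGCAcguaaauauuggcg
miR-195a-5p: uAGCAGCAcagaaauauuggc
miR-20b-5p: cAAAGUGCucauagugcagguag
miR-106a-5p: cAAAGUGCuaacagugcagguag
miR-20a-5p: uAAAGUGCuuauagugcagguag
miR-363-3p: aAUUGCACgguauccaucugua
miR-92a-3p: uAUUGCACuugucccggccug

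The 6 WT libraries held 13647537 to 17625145 miRNA reads, and 935 to 1013 of the 1963 listed miRNAs had at least 1 read in a library. They differed most in the miR-1a, miR-133, miR-206, miR-208b and miR-499 families of striated muscle. At 10 weeks these families took 9.74%, 19.1% and 30.7% of all miRNA reads in libraries 28, 29 and 30, and at 30 weeks 0.389%, 0.449% and 0.426% in libraries 19, 20 and 21. The groups did not overlap, with means of 19.8 ± 10.5% and 0.421 ± 0.031% (SD, n = 3 each). The families were named with this difference known, so it is given as a description, with no test. The most abundant miRNA of libraries 29 and 30 was miR-1a-3p, at 15.1% and 27.4% of reads, in tissue that had been dissected lobe by lobe under a microscope. In the other lines the same families took 0.736% to 6.51% of reads in KO and 3.72% to 13.7% in A537T at 10 weeks. At 30 weeks they took 0.502% to 0.821% in KO and 0.356% to 0.546% in A537T. A level is therefore given as RPM, reads per 1000000 reads outside these families, and as RPM of all reads where that scale is named.

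**Figure D1:**
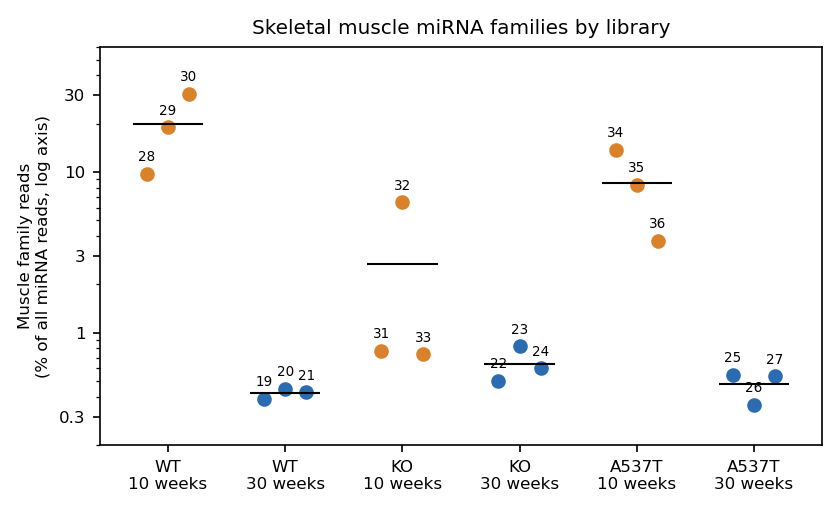
Share of miRNA reads (%, log axis) in the miR-1a, miR-133, miR-206, miR-208b and miR-499 families; each point is a library with its number, orange for 10 weeks and blue for 30 weeks, and the line is the mean of 3. WT libraries 28, 29 and 30 lie between 9.74% and 30.7%, and WT libraries 19, 20 and 21 between 0.389% and 0.449%.

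Of 525 miRNAs with a mean of at least 1 RPM, 22 (4.19%) differed between 30 and 10 weeks in the WT prostate at an adjusted p under 0.05 (limma on log2 levels with a pseudocount of 1, Benjamini-Hochberg adjustment). All but 1 of the 22 fell. Of those that fell, miR-208b-3p, miR-499-5p, miR-1a-1-5p, miR-653-5p, miR-7689-3p and miR-1941-3p averaged under 1 RPM at 30 weeks. They entered the test through the 10-week libraries only, which favours a fall. Of the fallen miRNAs, 8 belong to the striated muscle families and 7 to the miR-378 and miR-486 families, which are high in muscle. Which cells the miR-378 and miR-486 reads came from was not tested. The remaining 7 were miR-340-5p, which rose, and miR-30a-5p, miR-149-5p, miR-653-5p, miR-299a-3p, miR-7689-3p and miR-1941-3p, which fell. The calls of the muscle families are a description, since these families were named with their high 10-week levels known. At an unadjusted p under 0.05 there were 96 miRNAs (18.3%), 78 lower (14.9%) and 18 higher (3.43%). For 28.2% of the 525 the ages did not overlap, with 40 miRNAs higher (7.62%) and 108 lower (20.6%) in all 3 libraries of 30 weeks. The median log2 change over all 525 was -0.13 on this scale and 0.14 as RPM of all reads, a shift of 0.27, so changes of that size take their direction from the scale.

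With the muscle share of each library as a covariate, 6 miRNAs passed, of which 5 were among the 22 and none among the 7 outside the muscle lists. The log2 change was then 1.35 for miR-340-5p, -1.23 for miR-30a-5p and -1.47 for miR-299a-3p, against 1.18, -0.96 and -1.48 without the covariate. It was -1.03 for miR-149-5p, -1.53 for miR-653-5p, -0.99 for miR-7689-3p and -0.95 for miR-1941-3p, against -2.92, -3.23, -1.58 and -1.34. The muscle share did not overlap between the ages, and age and muscle share cannot be told apart in these libraries. Leaving out 1 library at a time left 5 to 18 calls, with 5 without library 29, 7 without library 21, 8 without library 20 and 13 without library 19, and miR-1a-3p, miR-1a-1-5p, miR-133a-3p, miR-133a-5p and miR-133b-3p were called every time. Of the 7 calls outside the muscle lists, miR-653-5p kept its call in 3 of these 6 fits, miR-149-5p and miR-7689-3p in 2, and the other 4 in none.

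Of the 8 called forms of the muscle families, the 7 with reads at both ages had log2 changes from -6.58 to -3.57. These families were named with their difference between the ages known, so their p-values describe that difference and are no independent test of it. miR-1a-3p, which helps set the muscle programme by restraining Hdac4, stood at 83009, 186532 and 394893 RPM in libraries 28, 29 and 30 and at 3007, 3448 and 3285 in libraries 19, 20 and 21, a log2 change of -5.82 ± 0.53 (SE, adjusted p = 0.0026, limma). Its cluster partner miR-133a-3p, which acts on myoblast proliferation, went from 20854, 40303 and 38852 to 682, 967 and 859.8 (log2 change -5.27 ± 0.30, adjusted p = 0.000327). Both pairs of groups lay far apart. miR-206-3p is particular to skeletal muscle and is hardly made in heart. It was at 1984, 4767 and 5028 at 10 weeks and at 154.6, 5.11 and 55.8 at 30 weeks, a log2 change of -6.58 ± 1.15 (adjusted p = 0.0304, and 0.0742 in edgeR). At 30 weeks miR-206-3p was spread widely between the libraries, with library 19 the highest, while miR-1a-3p was nearly level. miR-206-3p (chr1:20679055-20679076) and miR-133b-3p (chr1:20682834-20682855) both lie in exons of the lincRNA Gm28653, on the plus strand.

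miR-208b-3p and miR-499-5p sit in introns of the slow myosin genes Myh7 and Myh7b (chr14:54975710-54975731 and chr2:155622893-155622913) and mark slow muscle fibres. miR-208b-3p stood at 2.51, 6.3 and 12.1 RPM at 10 weeks and had no read in any 30-week library. Set against a floor of 3 reads per library, its mean level was at least 31.5-fold lower at 30 weeks. miR-499-5p stood at 19.4, 49.3 and 153 and then at 0.471, 0.691 and 0.515 (log2 change -5.12 ± 0.70, adjusted p = 0.0138). Of 16 listed forms of these families 8 passed the filter on low levels, and miR-208b-3p, miR-499-5p and miR-1a-1-5p passed it through the 10-week libraries only, since each averaged under 1 RPM at 30 weeks.

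The miR-378 and miR-486 families were lower at 30 weeks as well. miR-378a-3p lies in the Ppargc1b gene and acts on mitochondrial metabolism. Its level was 9363, 16719.8 and 20148 at 10 weeks and 2938, 3274 and 3349 at 30 weeks, a log2 change of -2.20 ± 0.30 (adjusted p = 0.0138). miR-378a-5p, miR-378b, miR-378c and miR-378d changed by -2.46, -2.95, -2.80 and -2.01, all past the test. miR-486ab-5p, made from the Ank1 locus in muscle and in red cells, fell from 1407, 1773 and 2615 to 219, 541.001 and 484 (log2 change -2.27 ± 0.41, adjusted p = 0.0339). Of the 6 tested red cell miRNAs all lay below 0 (median -1.45), or 5 of 6 as RPM of all reads (median -1.19), and the 2 that passed were forms of miR-486. miR-451a, a defining red cell miRNA, was at 315, 178 and 165 at 10 weeks and 106.048, 289 and 213 at 30 weeks, with overlapping groups and a log2 change of -0.17 ± 0.44 (adjusted p = 0.903), or 0.15 as RPM of all reads. miR-144-3p and miR-144-5p, made beside it, had log2 changes of -0.62 ± 0.32 and -0.26 ± 0.35 (adjusted p = 0.368 and 0.794), and their groups overlapped. Of the 8 forms of these 2 families 7 passed, the exception being miR-486b-3p at -2.41 (adjusted p = 0.13). All 7 calls were lost with the muscle share as a covariate, and without library 29 none of them remained.

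miR-340-5p was the only miRNA that rose past the test. It is made from an intron of Rnf130 on chromosome 11 (chr11:50069720-50069741, plus strand). Libraries 28, 29 and 30 held 352, 563 and 410.3 RPM and libraries 19, 20 and 21 held 899, 1095 and 967. Every 30-week library lay above every 10-week library, and the log2 change was 1.18 ± 0.22 (adjusted p = 0.0414). It also passed as RPM of all reads (adjusted p = 0.0175). The estimate ranged from 1.03 to 1.37 when any 1 library was left out, but the call was lost each time (adjusted p = 0.0729 to 0.204). In KO mice miR-340-5p stood at 221.9 to 380.4 at 10 weeks and 646 to 749 at 30 weeks (log2 change 1.20 ± 0.23, adjusted p = 0.0068), and in A537T mice at 308 to 621 and 775 to 1446 (log2 change 1.10 ± 0.33, adjusted p = 0.0561). In all 3 lines the ages did not overlap, and these lines share no library.

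Among the miRNAs that fell outside the muscle lists, miR-30a-5p was the most abundant. It targets Becn1 and Snai1 among others and comes from chromosome 1 (chr1:23272274-23272295), with no host gene annotated around its hairpin. Its level was 20102, 17494 and 16367 at 10 weeks and 7756, 10861 and 9318 at 30 weeks, without overlap, and its 10-week levels ran against the order of the muscle share. The log2 change was -0.96 ± 0.19 (adjusted p = 0.0442), and it was -0.64 as RPM of all reads, where the call was lost (adjusted p = 0.223), as it was in edgeR (adjusted p = 0.127). Its other arm, miR-30a-3p, had a log2 change of -0.71 (adjusted p = 0.172) and 10 of 11 tested forms of the miR-30 family lay below 0, but their median of -0.18 was close to the median of all miRNAs tested and turned to 0.14 as RPM of all reads. In KO mice the change of miR-30a-5p was -0.47 ± 0.30, and in A537T mice it was 0.04 ± 0.25, both short of the test.

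miR-149-5p, from an intron of Gpc1 (chr1:92850381-92850403), was at 379.1, 540.9 and 1527 RPM in the 10-week libraries and 65.8, 123.6 and 87 in the 30-week libraries (log2 change -2.92 ± 0.54, adjusted p = 0.0377). Its 10-week levels followed the order of the muscle share, and with that share as a covariate its change was -1.03 (adjusted p = 0.311). It fell past the test in KO (log2 change -1.03 ± 0.24) and A537T mice (log2 change -1.79 ± 0.27) as well.

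miR-653-5p (log2 change -3.23 ± 0.46, adjusted p = 0.0162), from an intron of the calcitonin receptor gene Calcr (chr6:3721355-3721375, minus strand), had 374 reads in all at 10 weeks and 1 read at 30 weeks. The 10-week level was 418-fold that at 30 weeks, with an exact Poisson interval of 74.6 to 16556 (95%, counting error only). Its levels of 3.96, 8.86 and 16.9 in libraries 28, 29 and 30 again followed the order of the muscle share. miR-7689-3p and miR-1941-3p were low, at 3.14, 4.47 and 5.48 and at 2.2, 2.55 and 3.29 RPM at 10 weeks. At 30 weeks they were at 0.648, 0.691 and 0.957 and at 0.0589, 0.691 and 0.662, under 1 RPM in each library. miR-653-5p, miR-7689-3p and miR-1941-3p therefore passed the filter on low levels through the 10-week libraries only. miR-7689-3p lies opposite an intron of Sorcs2 (chr5:36301606-36301628) and changed by -1.58 ± 0.25 (adjusted p = 0.0224). miR-1941-3p lies opposite an intron of the keratin gene Krt80 (chr15:101369401-101369421) and changed by -1.34 ± 0.27 (adjusted p = 0.0474). These 3 miRNAs and miR-149-5p were, from lowest to highest, in the order 28, 29 and 30 of the muscle share, 4 of the 7 calls outside the muscle lists, as were 108 of the 525 tested (20.6%). This order of 3 libraries is given as a description only. Whether striated muscle in the 10-week samples had a part in the falls of these 4 miRNAs was not tested. The fit with the covariate cannot decide it, since age and muscle share cannot be told apart in these libraries.

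**Figure D2:**
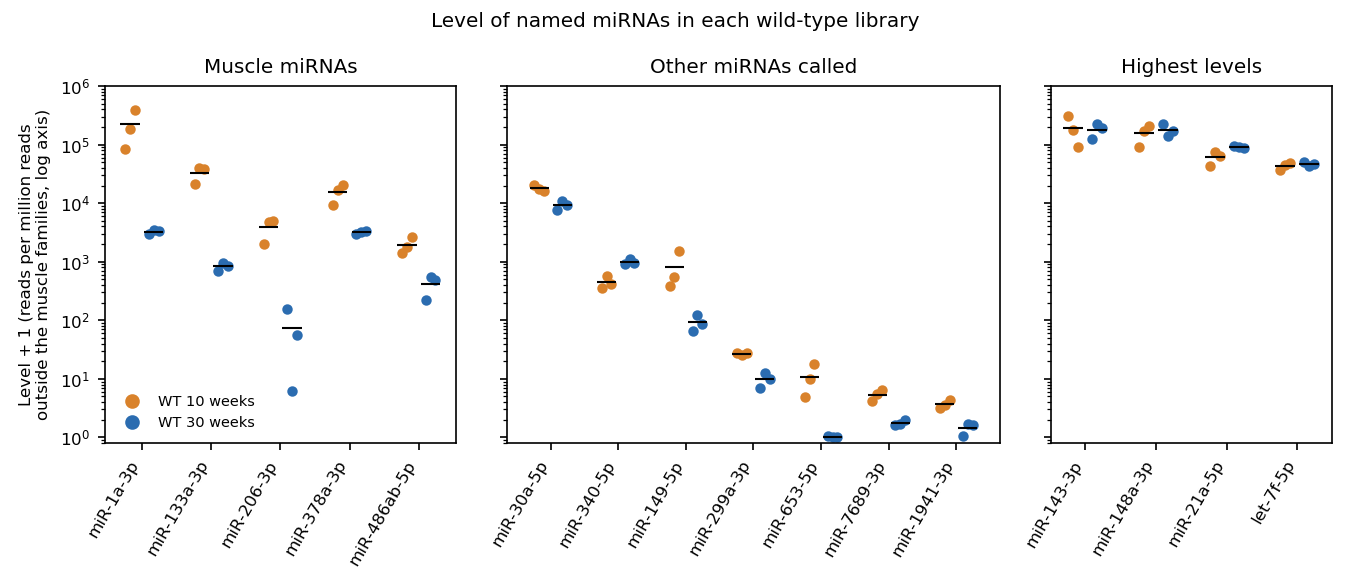
Levels in the 6 WT libraries (RPM outside the muscle families plus 1, log axis), with a point for each library, orange at 10 weeks and blue at 30 weeks, and a line at the mean of 3. The ages do not overlap for any miRNA in the first 2 panels, while miR-143-3p, miR-148a-3p and let-7f-5p overlap in the third.

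The X-linked cluster of miR-322, miR-503, miR-351, miR-542 and miR-450 had 13 listed mature forms, of which 9 were tested. It lies on the minus strand at chrX:53048008-53054327. miR-450b-5p and miR-542-3p averaged under 1 RPM at 30 weeks (0.722 and 0.917) and passed the filter on low levels through the 10-week libraries only. All 9 tested forms, these included, lay below 0, with no overlap between the ages, where 20.6% of all tested lay lower without overlap, and all 9 had an unadjusted p under 0.05 against 14.9% of all tested. None passed the adjusted threshold (limma, with edgeR also calling none and DESeq2 calling 1). miR-322-3p, the most abundant form, was at 44.6, 46 and 87.4 RPM at 10 weeks and at 14.8, 26.9 and 23 at 30 weeks (log2 change -1.39 ± 0.37, adjusted p = 0.148).

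miR-322-5p, the mouse counterpart of miR-424 and a regulator of cyclins, stood at 33.3, 22.4 and 17.3 and then at 4.77, 14.2 and 10.1, a log2 change of -1.31 ± 0.44 (adjusted p = 0.195). miR-351-5p, which has the seed of the miR-125 family, was at 36.6, 30.8 and 58.6 and then at 11.1, 22.3 and 20.2 (log2 change -1.19 ± 0.38). miR-503-5p, which acts on Ccnd1 and Cdc25a, was at 7.54, 6.3 and 6.41 and then at 1.41, 3.87 and 2.94 (log2 change -1.11 ± 0.32). Every 30-week value of these 3 miRNAs was below every 10-week value, and library 19 was the lowest each time.

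The median log2 change of the X-linked cluster was -0.99 against -0.13 for all tested. It was -0.74 as RPM of all reads, and ranged from -1.18 to -0.82 when 1 library was left out, with 9 of 9 below 0 every time. With the muscle share as a covariate 8 of 9 lay below 0. In KO mice all 9 lay below 0 (median -0.58) and 4 passed the test, where 24.4% of all tested fell past it. In A537T mice all 9 lay below 0 (median -0.76) and 1 passed, where 14.4% of all tested fell past it. Summed over the cluster, the WT level was 178, 145.001 and 223.3 RPM at 10 weeks and 46, 94.9 and 84.6 at 30 weeks. In KO mice the sums were 116 to 129.6 and 62 to 82.4, and in A537T mice 138 to 212 and 65.4 to 110.1. The ages did not overlap in any of the 3 lines.

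The miR-15 and miR-16 family carries the seed of miR-322-5p from other chromosomes and is known for targeting cyclins and Bcl2. miR-16-5p was at 1119.7, 901 and 728 at 10 weeks and 421, 733 and 584 at 30 weeks, where libraries 30 and 20 overlapped (log2 change -0.67 ± 0.27, adjusted p = 0.269). miR-195a-5p was at 478, 441 and 429.5 and then at 231, 398 and 303, without overlap (log2 change -0.57 ± 0.24, adjusted p = 0.276). Counting miR-322, 12 of 12 tested forms lay below 0 with a median of -0.51, and none passed the test. As RPM of all reads 9 of 12 lay below 0.

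In the miR-17-92 family and its paralogues 13 of 19 tested forms overlapped between the ages, and none passed the test. Without overlap 3 were higher and 3 lower, where 7.62% of all tested were higher and 20.6% lower. The forms given below are those that did not overlap. The X-linked copy holds miR-106a, miR-20b and miR-363, and also makes miR-19b-3p and miR-92a-3p, which chromosome 14 makes as well. The copy on chromosome 14 lies in Mir17hg, the host gene known as an oncogene. miR-20b-5p from the X chromosome (chrX:52742159-52742181) was at 19.5, 31.4 and 30.4 at 10 weeks and 56.3, 46.8 and 50.4 at 30 weeks (log2 change 0.92 ± 0.27). miR-20a-5p, which has the same seed and comes from chromosome 14 (chr14:115044183-115044205), was at 210.3, 205.970 and 162 and then at 99, 134.4 and 120.4 (log2 change -0.70 ± 0.22). Neither pair of groups overlapped, and the directions were opposite under each of the scalings tried.

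The seed of miR-363-3p is shared with miR-92a-3p, which is made from both copies. miR-363-3p from the X chromosome (chrX:52741697-52741718) was at 20.8, 35.3 and 36.6 and then at 83.5, 50 and 65.1 (log2 change 1.09 ± 0.32), and miR-92a-3p was at 882, 772 and 970.4 and then at 500.4, 648 and 616 (log2 change -0.57 ± 0.19). miR-106a-5p had a log2 change of 0.66 ± 0.27 and miR-19a-3p of chromosome 14 one of -0.74 ± 0.25, both without overlap. None of these 6 passed the adjusted threshold, with adjusted p between 0.167 and 0.266. Over the whole family 13 of 19 tested forms lay below 0, with a median of -0.12 against -0.13 for all tested. As RPM of all reads 7 of 19 lay below 0, with a median of 0.18 against 0.14. In KO mice the log2 change was 1.32 ± 0.42 for miR-20b-5p and -0.35 ± 0.25 for miR-20a-5p, and in A537T mice 0.54 ± 0.33 and 0.51 ± 0.25, none past the test.

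The imprinted miRNAs between Dlk1 and Dio3 form the longest of the lists with tested members. They lie on the plus strand at chr12:109572004-109743784, are made from the maternal chromosome and are known from embryonic and neural tissue. Of 96 listed forms 65 passed the filter, 62 of them below 0 with a median of -0.74, against 63.0% of all tested below 0 and a median of -0.13. As RPM of all reads 53 of 63 lay below 0, with a median of -0.46. The number tested changed with the scale, so some forms lie near the filter on low levels. Such forms can pass it through the 10-week libraries only, which favours a fall, and their number is not given here. Only miR-299a-3p passed the test, and 12 of 65 had an unadjusted p under 0.05, all lower, where 14.9% of all tested were lower at that p. miR-299a-3p (chr12:109710676-109710697) was at 26.7, 24.5 and 26.8 at 10 weeks and 6.01, 11.6 and 9.12 at 30 weeks, a log2 change of -1.48 ± 0.30 (adjusted p = 0.0474) that missed the threshold as RPM of all reads (adjusted p = 0.111) and without any 1 library. It changed by -1.48 in WT, -1.53 in KO and -1.48 in A537T mice, past the test in each.

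Library 19 stood apart from libraries 20 and 21 for the abundant imprinted miRNAs. miR-127-3p, the most abundant and the one that lies opposite Rtl1, stood at 2114, 1329.8 and 2049 at 10 weeks and at 406, 1603 and 1318 at 30 weeks. Library 19 was far below all others and library 20 lay within the 10-week range, and the log2 change of -0.91 ± 0.53 did not pass (adjusted p = 0.422). Of the 65 tested imprinted forms 14 were lower at 30 weeks without overlap, where 20.6% of all tested were. miR-379-5p and miR-411-5p, which are neighbours in the cluster, are among those 14. miR-379-5p was at 541.8, 451.044 and 476 and then at 84.6, 271 and 249 (log2 change -1.44 ± 0.45, adjusted p = 0.172). miR-411-5p was at 259, 234 and 393 and then at 73.2, 144.7 and 138 (log2 change -1.34 ± 0.35, adjusted p = 0.13).

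Summed over the list, the imprinted miRNAs were at 5517, 3459.9 and 5021 RPM at 10 weeks and at 965, 3906 and 3147 at 30 weeks. Without library 19 the median log2 change was -0.22 and 40 of 67 tested forms lay below 0. With library 19 kept and any other library left out, the median ranged from -1.11 to -0.56. In KO mice 52 of 56 tested forms fell past the test (median -1.66), where 24.4% of all tested did. In A537T mice 47 of 60 did (median -1.36), where 14.4% of all tested did. Their summed level in KO was 3132 to 4128 at 10 weeks and 860.2 to 1107 at 30 weeks. In A537T it was 4355 to 5268 and 1427 to 1746. WT library 19 thus lay within the 30-week range of KO mice, and WT libraries 20 and 21 above the 30-week ranges of both lines.

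Neural miRNAs also set library 19 apart from libraries 20 and 21, and did not separate the ages. miR-124-3p, the neuronal miRNA, was at 22.6, 3.75 and 2.61 at 10 weeks and 0.471, 19.2 and 14.3 at 30 weeks. miR-7b-5p was at 695, 140.1 and 117 and 18.8, 639 and 419.6, and miR-9-5p at 1200.4, 285 and 228 and 140.4, 1144 and 864. Libraries 28, 20 and 21 were high and libraries 29, 30 and 19 low for all 3, and all 9 tested neural forms overlapped between the ages. Their log2 changes ranged from -0.37 for miR-7b-5p to 0.45 for miR-9-3p, none past the test. In KO mice 7 of 9 fell past the test (median -1.81), where 24.4% of all tested did, with miR-124-3p at 9.17 to 13.3 at 10 weeks and 0.277 to 1.77 at 30 weeks. In A537T mice none of 9 passed (median -0.87). Summed, the 13 listed neural forms were at 6278, 3784 and 2736 RPM at 10 weeks and at 2882, 7261 and 5817 at 30 weeks in WT. The part of neural tissue in the levels of the imprinted miRNAs was not tested. Like all values here these are from bulk tissue, where fewer cells of a type and less RNA per cell cannot be told apart.

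**Figure D3:**
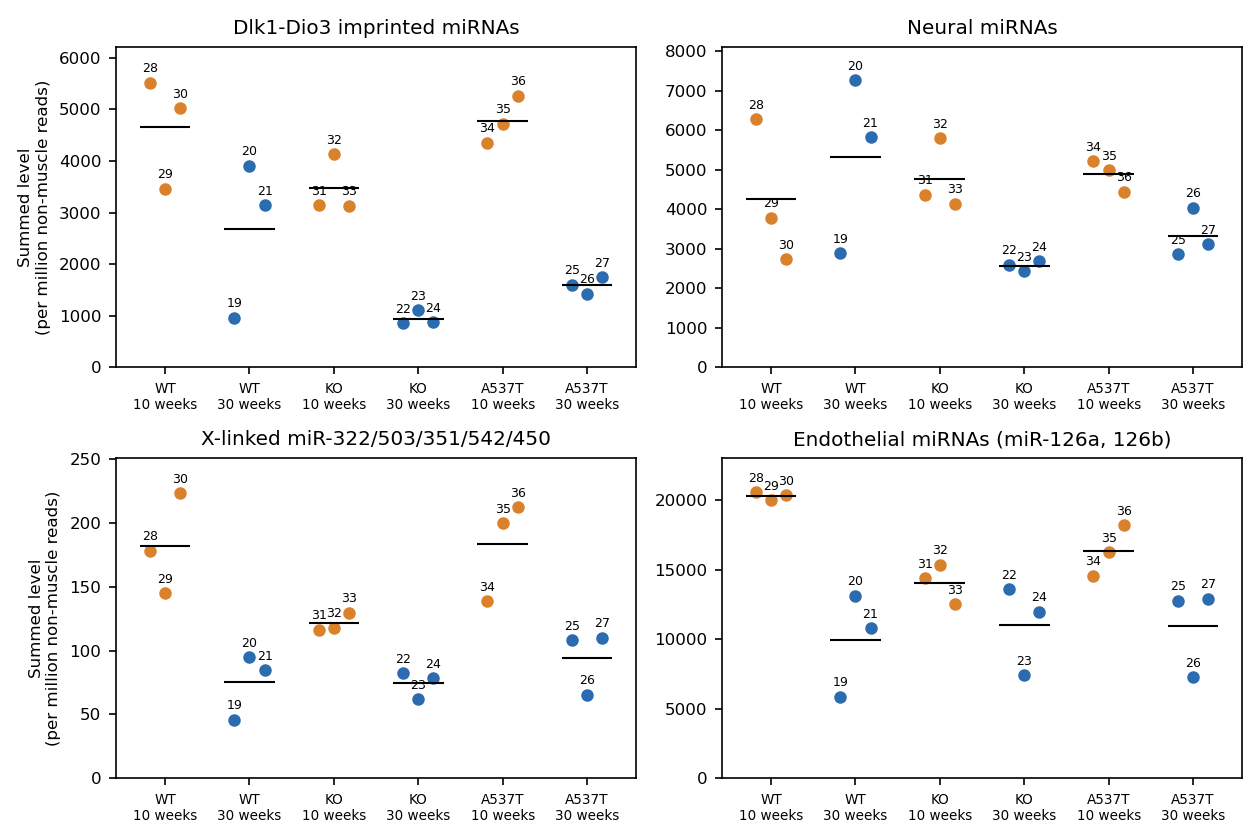
Summed level of 4 groups of miRNAs (RPM outside the muscle families) in each library of WT, KO and A537T mice, orange at 10 weeks and blue at 30 weeks, with library numbers and a line at the mean of 3. WT library 19 lies far below libraries 20 and 21 for the imprinted and neural miRNAs, and the X-linked cluster separates the ages in all 3 lines.

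miR-126a-3p, the endothelial miRNA from the Egfl7 gene (chr2:26591402-26591423), was lower at 30 weeks. It stood at 19945, 19499 and 20025 RPM in the 10-week libraries, which were nearly equal, and at 5733, 12718 and 10490.4 at 30 weeks. The ages did not overlap, and the log2 change of -1.12 ± 0.30 did not pass the test (adjusted p = 0.152). miR-126a-5p overlapped, with a log2 change of -0.85 ± 0.47. In KO and A537T mice the log2 change of miR-126a-3p was -0.39 ± 0.24 and -0.63 ± 0.26.

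Of 9 tested miRNAs from the Hox clusters, which keep the positional identity of stroma and epithelium, 8 lay below 0 (median -0.82, and -0.50 as RPM of all reads) and 6 were lower at an unadjusted p under 0.05, where 14.9% of all tested were, but none passed the test. miR-10b-5p, from Hoxd4, was at 15318, 8059 and 8597 at 10 weeks and 2365, 5489 and 4523 at 30 weeks (log2 change -1.39 ± 0.39, adjusted p = 0.157). miR-196a-5p was at 413, 401 and 495.2 and then at 93.8, 303 and 264 (log2 change -1.15 ± 0.45). miR-615-3p, in Hoxc5, was at 30.7, 30.6 and 313 and 6.01, 15.3 and 15.8, with library 30 far above the other 10-week libraries. miR-181a-2-3p showed the same single high library, at 14, 32.2 and 101 at 10 weeks and 7.54, 4.9 and 5.3 at 30 weeks (log2 change -2.44 ± 0.68, adjusted p = 0.153). Library 30 was also the one with the highest muscle share, and its part in these values was not tested.

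Of the miRNAs that were higher at 30 weeks, only miR-340-5p passed the test. The miR-29 family, which represses collagens and other matrix genes, lay above 0 in 7 of 7 forms (median 0.45), where 37.0% of all tested did, and 4 of 7 did not overlap, against 7.62% of all tested that were higher without overlap. miR-29a-3p was at 13185, 13502 and 10307 at 10 weeks and 17678, 19361 and 19117 at 30 weeks (log2 change 0.61 ± 0.17, adjusted p = 0.152), and miR-29b-3p at 231, 223.2 and 139.9 and 322.1, 365 and 340.7 (log2 change 0.82 ± 0.25, adjusted p = 0.169). The family's median was 0.69 as RPM of all reads. With 1 library left out the median ranged from 0.47 to 0.60, and 0 to 3 forms lay below 0. With the muscle share as a covariate the median was 0.13, with 4 of 7 above 0. The log2 changes of miR-29a-3p and miR-29b-3p were then 0.27 and 0.13. All 4 forms of miR-221 and miR-222, which repress the cell cycle inhibitor Cdkn1b, were higher without overlap (median 0.41), where 7.62% of all tested were. miR-221-3p was at 1399, 1229.8 and 1097 and then at 1656, 1608 and 1591 (log2 change 0.39 ± 0.16, adjusted p = 0.276). The summed level of these 4 forms overlapped between the ages in KO mice and did not in A537T mice. miR-21a-5p, raised in many proliferating and inflamed tissues, was at 43304, 75148 and 64977 and then at 95603, 90966 and 86178 (log2 change 0.61 ± 0.23, adjusted p = 0.247).

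Of 20 tested epithelial miRNAs 17 lay above 0 (median 0.27) and 3 were higher without overlap, where 37.0% of all tested lay above 0 and 7.62% were higher without overlap. As RPM of all reads 19 of 19 lay above 0 (median 0.59) and 1 passed. miR-200c-3p, which keeps epithelial identity by repressing Zeb1, was at 10668, 16308 and 15055 and then at 23775, 18846 and 21013 (log2 change 0.62 ± 0.21, adjusted p = 0.198). Library 28 was the lowest for it and for miR-200b-3p, and both were abundant in all 6 libraries. miR-205-5p, the basal cell miRNA, was at 3645, 2738 and 2410.5 and 4018, 3668 and 3621 with a change of 0.38 ± 0.20. miR-122-5p, the liver miRNA, was at 2.2, 1.92 and 1.18 and then at 16, 5.18 and 7.43 (log2 change 1.82 ± 0.42, adjusted p = 0.0897), at low levels, and its log2 change was 0.01 in KO and -0.05 in A537T mice. The differences from WT did not pass the test (adjusted p = 0.347 against KO and 0.618 against A537T).

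**Figure D4:**
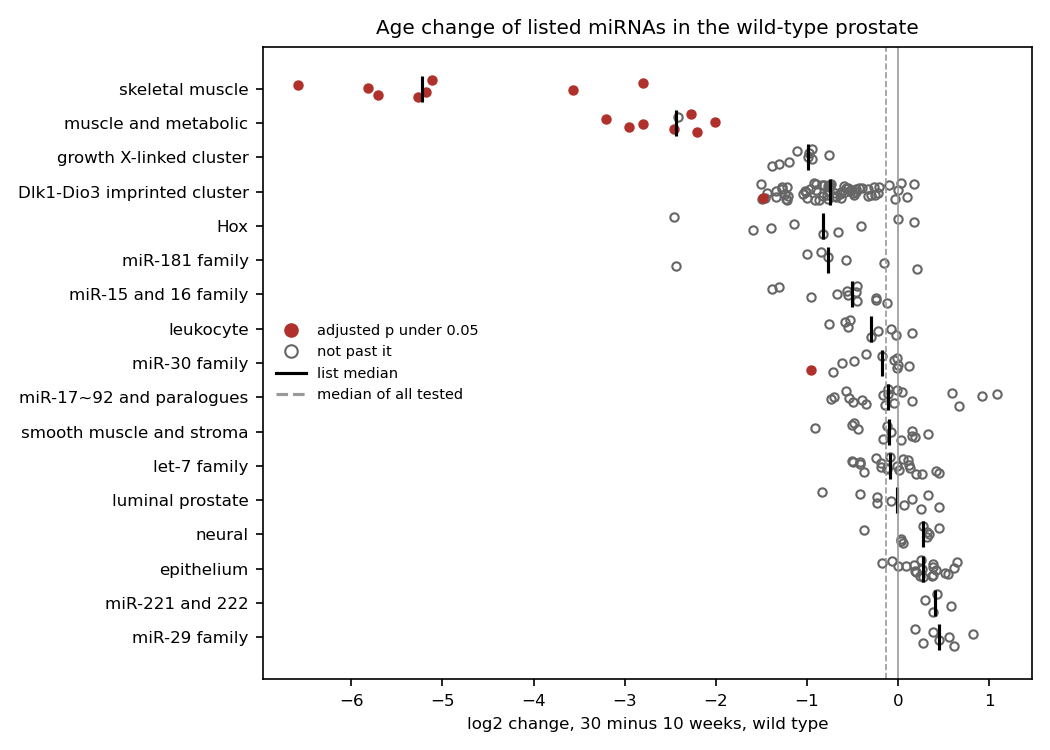
log2 change between 30 and 10 weeks in WT mice for each tested miRNA of 17 lists; filled points passed the adjusted threshold, a bar marks each list's median and the dashed line the median of all 525. The muscle lists lie between -6.58 and -2.01, the X-linked cluster between -1.39 and -0.76, and the miR-29 family above 0.

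Of the 5 most abundant miRNAs only miR-1a-3p, of the muscle families, passed the test. miR-143-3p, of smooth muscle, was at 309499, 174679 and 91408 RPM at 10 weeks and 123782, 224293 and 192119.95 at 30 weeks. Its 10-week levels ran against the order of the muscle share, the groups overlapped, and the log2 change was 0.04 ± 0.47 (adjusted p = 0.985). miR-148a-3p, high in secretory epithelium, ran the other way at 90826, 169605 and 204382 and 223993, 139906 and 167991 (log2 change 0.25 ± 0.35, adjusted p = 0.797). let-7f-5p was at 36267, 44609.9 and 48234 and 49552, 43692 and 46709, with a change of 0.12 ± 0.17, and the 21 tested let-7 forms had a median of -0.09. All 12 tested miRNAs of smooth muscle and stroma overlapped between the ages (median -0.10, turning to 0.22 as RPM of all reads). Of 9 tested leukocyte miRNAs none passed, and their median of -0.29 turned to 0.00 as RPM of all reads. miR-22-3p, a widely made miRNA that is high in muscle, was at 5392, 6195 and 7213 and then at 3101, 3893 and 4033 (log2 change -0.77 ± 0.19, adjusted p = 0.117), without overlap.

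The same ages were compared in KO and A537T mice, whose libraries share none with WT. In KO 131 of 505 tested miRNAs passed (25.9%), 8 higher and 123 lower, a split that became 54 higher and 84 lower with median-of-ratios scaling. In A537T 81 of 515 passed (15.7%), 7 higher and 74 lower. Of the 121 KO falls tested in WT, 94 lay below 0 there, with a median of -0.46 in WT against -1.45 in KO, and 3 passed in WT. Of the 74 A537T falls 72 lay below 0 in WT and 14 passed in WT, 11 of these from the muscle lists. For comparison, 63.0% of all tested miRNAs lay below 0 in WT. Of the 7 WT calls outside the muscle lists, 4 were tested in KO, where all 4 had the same sign and 3 passed, and 7 in A537T, where 6 had the same sign and 3 passed. Of these 7, miR-653-5p, miR-7689-3p and miR-1941-3p passed the WT filter through the 10-week libraries only, and miR-653-5p is among those that passed in A537T. The muscle share of A537T libraries was also higher at 10 weeks, at 3.72% to 13.7% against 0.356% to 0.546% at 30 weeks.

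The change itself was not shown to differ between WT and the other lines. For WT minus KO none of 513 miRNAs passed the adjusted threshold in limma or edgeR, 55 (10.7%) had an unadjusted p under 0.05, and DESeq2 called 26. For WT minus A537T none of 522 passed in limma or edgeR, 28 (5.36%) had an unadjusted p under 0.05, and DESeq2 called 5. The difference for miR-1a-3p was -4.56 ± 1.10 against KO (adjusted p = 0.247) and -1.67 ± 0.77 against A537T (adjusted p = 0.705). That for miR-340-5p was -0.01 ± 0.33 and 0.08 ± 0.44, and that for miR-127-3p was 1.10 ± 0.61 and 0.66 ± 0.58. The count against KO depended on the library left out. It was 8 without KO library 32 and 1 without WT library 28. It was 44 of 520 without WT library 19, 41 of them less lowered or more raised in WT than in KO. Of the 44, 26 were imprinted miRNAs, of 62 tested, and 7 were neural miRNAs, of 9 tested.

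**Figure D5:**
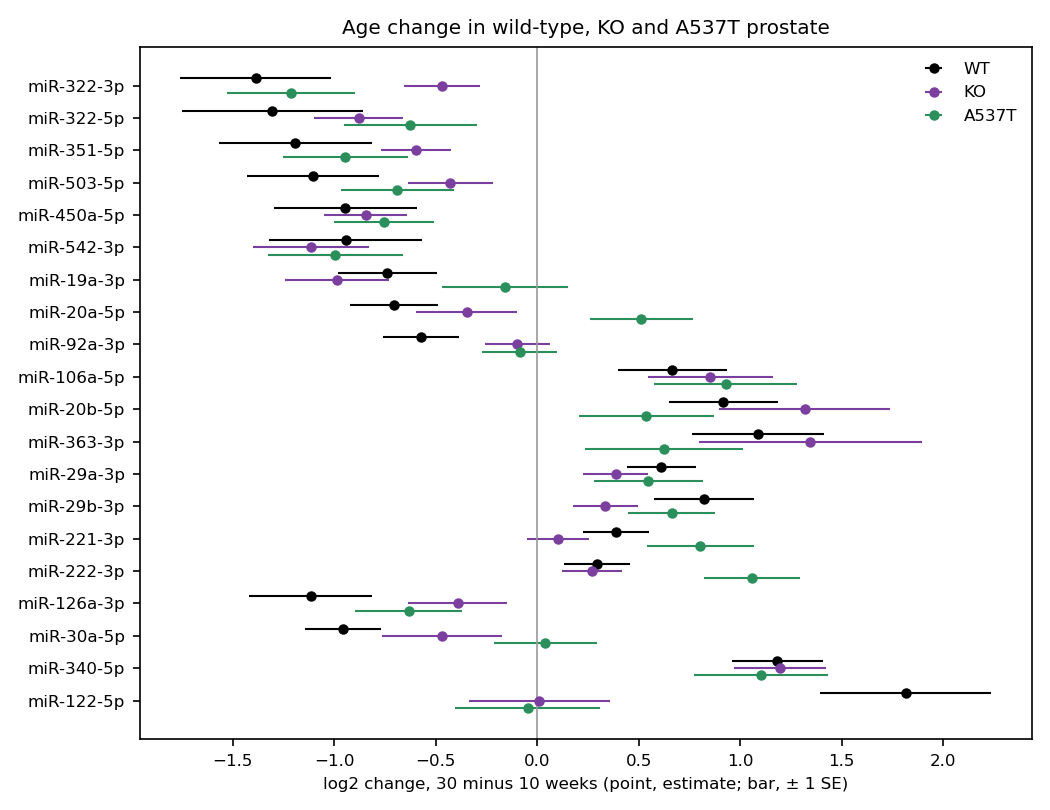
log2 change between 30 and 10 weeks for 20 miRNAs in WT (black), KO (purple) and A537T mice (green); points are estimates and bars 1 SE on each side, from 3 libraries per age. miR-340-5p lies between 1.10 and 1.20 in all 3 lines, and miR-122-5p lies at 1.82 in WT and near 0 in the others.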

How the data were processed

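miRNAs of the ventral and lateral prostate lobes were sequenced with the TruSeq small RNA kit. The authors merged read pairs with BBMerge, counted miRNAs with miRDeep2 against GRCm38 and miRBase, and summed miRNAs of identical sequence. The deposited values are a signal, gene counts divided by DESeq2 size factors, in a table for each genotype and age. Whole reads were recovered from them: 100% of 22586 values above 0 were whole within 0.01 read, and libraries in more than 1 table differed by 0 reads. The authors' fold-change and s-value files were not used. Columns were assigned to groups from the table names, columns shared by the KO and mutant tables being WT.

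Reads were scaled to reads per 1000000 reads outside the miR-1a, miR-133, miR-206, miR-208b and miR-499 families (RPM). miRNAs with a mean of at least 1 RPM over the 6 libraries of a fit (12 for a difference between lines) were tested on log2(level + 1), which understates the change of low miRNAs, with limma 3.58.1 (R 4.3.3, trend, two-sided, Benjamini-Hochberg, threshold 0.05). The alternatives were other scalings, pseudocounts, filters, edgeR 4.0.16, DESeq2 1.42.0, the muscle share as a covariate and leaving out each library. The tests were tested on simulated data. With 3 libraries per age, p-values measure the spread between libraries, which may be technical, and counting intervals cover counting error only. The comparison and the miRNA lists were chosen with earlier results of these data known. Named miRNAs were the 10 of smallest unadjusted p with a mean of at least 50 RPM outside the muscle families (the rule where under 10 pass with a mean of 50; up to 12 in each direction otherwise), the 5 most abundant, and members of the lists. The other called miRNAs were named after their values were seen.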

Additional observations from a re-analysis of the deposited data

How the results depend on the processing

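The 22 calls in WT became 39 with DESeq2 (5 higher, 34 lower, all 22 included) and 6 with the muscle share as a covariate, of which 5 were among the 22. Leaving out 1 library gave 5 to 18 calls, all among the 22: 13 without library 19, 8 without 20, 7 without 21, 16 without 28, 5 without 29 and 18 without 30. The other settings gave 18 to 21. Among 7 calls outside the muscle lists, 4 remained as RPM of all reads, 5 with median-of-ratios scaling and 0 with the covariate, where the log2 change was 1.35 for miR-340-5p, -1.23 for miR-30a-5p and -1.47 for miR-299a-3p. The log2 change of miR-143-3p turned to -1.59 with the covariate and ranged from -0.41 to 0.47 with 1 library left out. That of miR-148a-3p was 1.30 with the covariate and ranged from -0.10 to 0.49 with 1 library left out.

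In KO 25.9% of the miRNAs tested were called, and 23.5% at a mean of at least 10 RPM (68 of 289), 17.2% with the covariate (87 of 505), and 16.2% to 35.8% with 1 library left out, the lowest without library 31 and the highest without library 23. In A537T the share of 15.7% became 3.11% with the covariate (16 of 515) and 11.5% to 18.3% with 1 library left out. For WT minus KO the 0 calls became 26 with DESeq2 and 0 to 44 with 1 library left out (44 without library 19, 8 without KO library 32, 1 without library 28). For WT minus A537T they became 5 with DESeq2 and 0 to 7 (7 without A537T library 26). By construction the covariate sets age against muscle share and leaving out a library removes samples. The cause of these differences between settings was not tested. The muscle share at 30 weeks minus that at 10 weeks ranged from -24.4 to -14.0 percentage points with 1 library left out. With 13647537 to 17625145 reads a WT library, depth limits only miRNAs of a few reads, while 1 A537T library at 10 weeks held 655455. No paired analysis was possible because the columns carry no replicate numbers shared between ages.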

Other observations

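The remaining lists held no miRNA that passed the test in WT. Of 7 tested forms of the miR-181 family, known from lymphocyte development, 6 lay below 0 (median -0.77, and -0.48 as RPM of all reads). miR-181b-5p averaged 635 ± 193 RPM at 10 weeks and 416 ± 36.7 at 30 weeks (log2 change -0.57 ± 0.25, adjusted p = 0.293, limma), without overlap. With the muscle share as a covariate 4 of the 7 lay above 0. Of 10 tested miRNAs of luminal epithelium 5 lay above and 5 below 0 (median -0.01), and 5 of them did not overlap between the ages, where 28.2% of all tested did not. miR-148a-5p, the passenger arm of the abundant miR-148a-3p, averaged 609 ± 90.3 RPM at 10 weeks and 830.4 ± 99.4 at 30 weeks (log2 change 0.45 ± 0.19, adjusted p = 0.287), while miR-194-5p averaged 187 ± 10.2 RPM at 10 weeks and 139.9 ± 1.73 at 30 weeks (log2 change -0.42 ± 0.17, adjusted p = 0.269).

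Of 11 tested forms of miR-99, miR-100 and miR-125, 8 lay below 0 (median -0.12, turning to 0.16 as RPM of all reads), and only miR-100-5p did not overlap between the ages, averaging 3184 ± 651 RPM at 10 weeks and 2062 ± 271 at 30 weeks (log2 change -0.61 ± 0.22, adjusted p = 0.212). The 6 tested forms of miR-34 and miR-449, of which miR-34a is known as a target of p53, had a median of -0.11. miR-34a-5p averaged 247 ± 109 RPM at 10 weeks and 269 ± 79.7 at 30 weeks (log2 change 0.20 ± 0.43, adjusted p = 0.881). Of 71 listed miRNAs of the Sfmbt2 cluster 12 were tested, and all 12 overlapped between the ages (median -0.26). The 4 listed miRNAs of H19 and Igf2, genes of fetal growth, did not reach a mean of 1 RPM in WT.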
